A study of Rattus norvegicus with 10 samples.

Results

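Astrocytes of the rat brain were followed through 10 marker genes, Gfap, Aqp4, Slc1a2, Slc1a3, Gja1, Gjb6, S100b, Aldoc, Sox9 and Glul, on arrays of 10 single rats. Every probe set whose platform annotation names one of these genes and no other was taken, which gave 18 of the 31042 probe sets tested and covered 9 of the 10 genes. No probe set was named for Sox9, a transcription factor of the astrocyte lineage, so it has no value here. The DMHF group was 5 male Wistar rats aged 7 weeks that inhaled the vapor of DMHF, a hydroxyfuranone also called furaneol that gives strawberries part of their smell. The control group was 5 rats of the same strain, sex and age that inhaled distilled water vapor. Inhalation lasted 5 min from a flask holding 5 mL of liquid, with a further 10 min before the rats were killed. RNA came from the whole right side of each brain, so the markers report on astrocytes of many regions mixed with all other cells. The design asks whether marker RNA differed shortly after the odor, and the 10 rats also show how the markers varied together.

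Astrocytes surround synapses and blood vessels throughout the brain. They take up glutamate released by neurons and convert it to glutamine, buffer potassium and water, and share ions and metabolites through gap junctions. Their intermediate filament protein, GFAP, is widely used as a sign of astrocyte reactivity, which after injury builds up over hours to days.

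All values are the authors' processed log2 values, and they differ between rats by very little. The SD over the 10 rats ran from 0.159 to 103 millionths of a log2 unit among the 18 probe sets, against a median of 2.20 millionths over all 31042. A value is therefore given in millionths of a log2 unit relative to the mean of the 5 control rats, which stands at 0. Such a difference cannot be read as a fold change of RNA, and it can be set beside another only within a probe set. For comparison across probe sets it is divided by the SD within groups. The brightest probe set of all 9 genes lay above the array median of 7.24 on the deposited scale, with the least bright of these at 7.68 (Slc1a2). Of the other probe sets, 2 lay below that median, one of Slc1a2 at 6.88 and one of Gja1 at 5.88. Array medians differed by 15.2 millionths at most, and 0 pairs of arrays were identical. A single rat lies behind each array, and the sources used here give no litter, cage or scan date.

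None of the astrocyte markers passed the test for a difference between DMHF and control rats. Of the 18 probe sets, 0 had an adjusted p under 0.05 by limma, where the whole array gave 0% called, and the smallest adjusted p among them was 0.826. The unadjusted limma p was under 0.05 for 2 of 18, or 11.1%, a level that 5.48% of all probe sets reached. Those were Gfap and the dimmest probe set of Gja1, both nominally higher in DMHF, as were 3.23% of all probe sets at that level (2.25% were lower). The mean was nominally higher in DMHF for 9 of 18 and lower for 9, where 53.2% of all probe sets were nominally higher. The median difference was -0.0394 within-group SD over the 18, beside 0.0528 SD over all 31042. For 13 of 18 the difference was smaller than 1 within-group SD, and the 95% interval included 0 for 16. In none of the 18 did the groups separate without overlap, which 0.867% of all probe sets did (0.535% with all DMHF rats above and 0.332% with all below). In RNA from a whole brain side, fewer astrocytes and less RNA per astrocyte cannot be told apart.

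**Figure D1:**
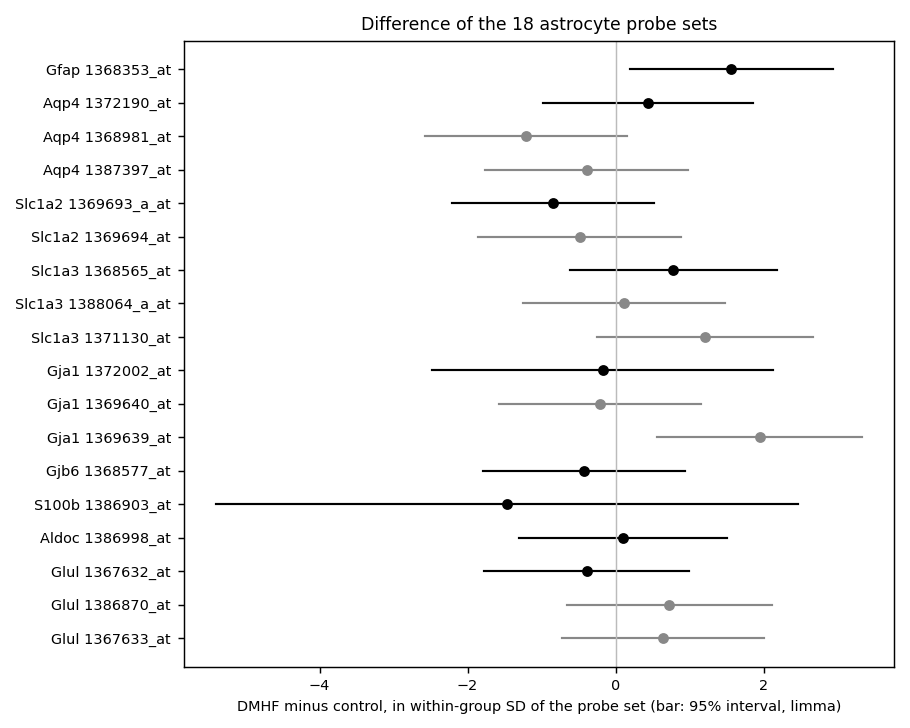
The 18 astrocyte probe sets are listed by gene, with the difference of DMHF minus control in within-group SD (point) and its 95% interval from limma (bar), black for the brightest probe set of a gene and grey for the others. Only the intervals of Gfap (1.56 SD) and the Gja1 probe set 1369639_at (1.95 SD) lie above 0, and the wide bar of S100b stems from a moderated SE larger than its own spread.

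Gfap encodes the intermediate filament protein of astrocytes and had 1 probe set (1368353_at). Its values were 14.4, 1.81, 8.28, 35.2 and 20.8 millionths in DMHF rats 1 to 5, against 3.36, 4.64, 1.21, 3.19 and -12.4 millionths in control rats 1 to 5. Thus 4 of 5 DMHF rats lay above every control rat, DMHF rat 4 was the highest and control rat 5 stood far below the rest. The SD was 12.8 millionths among DMHF rats and 7.04 among control rats. DMHF minus control was 16.1 millionths (SE 6.22, 95% interval 1.99 to 30.2), or 1.56 within-group SD, with an unadjusted p of 0.0297 and an adjusted p of 0.876 by limma. An exact two-sided permutation test over all ways to assign the 10 rats gave p = 0.0317 for this single probe set. Without DMHF rat 4 the difference was 11.3 millionths, and the limma unadjusted p exceeded 0.05 without control rat 5 (0.0686) or DMHF rat 5 (0.063).

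Markers of the ependyma, the ciliated cells that line the ventricles, were also nominally higher in DMHF, in 7 of 7 measured genes. So were 9 of 10 measured choroid plexus genes, the exception being Kcnj13, while 53% of all genes were nominally higher. None of the 7 or the 10 genes passed limma, with smallest adjusted p values of 0.901 (ependyma) and 0.893 (choroid plexus), and the unadjusted p was under 0.05 for 2 of 7 and 1 of 10. The mean standardised level of the ependyma list ran from -0.272 to 1.27 SD in DMHF rats and from -1.24 to 0.29 in control rats. That of the choroid plexus list ran from -0.576 to 1.33 SD in DMHF rats and from -1.33 to 0.615 in control rats. Both lists were highest in DMHF rat 4 and lowest in control rat 5. All these genes were read in the same 10 rats, so 7 of 7 and 9 of 10 are not counts of independent genes. Over the 10 rats Gfap correlated with the ependyma list at r = 0.74 (permutation p = 0.0144, adjusted p = 0.149 over 72 relations) and rho = 0.65 (permutation p = 0.0488, adjusted p = 0.251). Without the 2 rats of most extreme Gfap, DMHF rats 4 and 5, r was 0.78. With single rats left out r ran from 0.55 (without DMHF rat 4) to 0.84 (without DMHF rat 5). It was 0.48 among the DMHF rats and 0.81 among the control rats. With the ependyma list as a covariate, an analysis added after the data were seen, the Gfap difference was 8.14 millionths (limma unadjusted p 0.264, adjusted p above 0.05). With the choroid plexus list it was 11.5 (limma unadjusted p 0.0828).

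S100b, a calcium-binding protein of astrocytes, varied least of all the markers. Its probe set 1386903_at stood at -0.056, -0.206, -0.236, -0.246 and -0.216 millionths in DMHF rats 1 to 5, against 0.084, -0.206, -0.026, -0.086 and 0.234 millionths in control rats 1 to 5. Apart from DMHF rat 1, the DMHF rats sat close together at the low end of the control range, and 3 of 5 lay below all control rats. Those 3 were set apart from the lowest control rat only in the last deposited decimal. On the deposited scale they stood at 12.93370854, 12.93370853 and 12.93370856, against 12.93370857 in control rat 2. The difference was -0.192 millionths (SE 0.227), or -1.47 within-group SD, with a limma adjusted p of 1.0. The moderated SE exceeded the SD of both groups, 0.0777 in DMHF and 0.168 in control, so that p does not reflect the gene's own spread. The exact permutation test, which uses that spread alone, gave p = 0.0556.

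**Figure D2:**
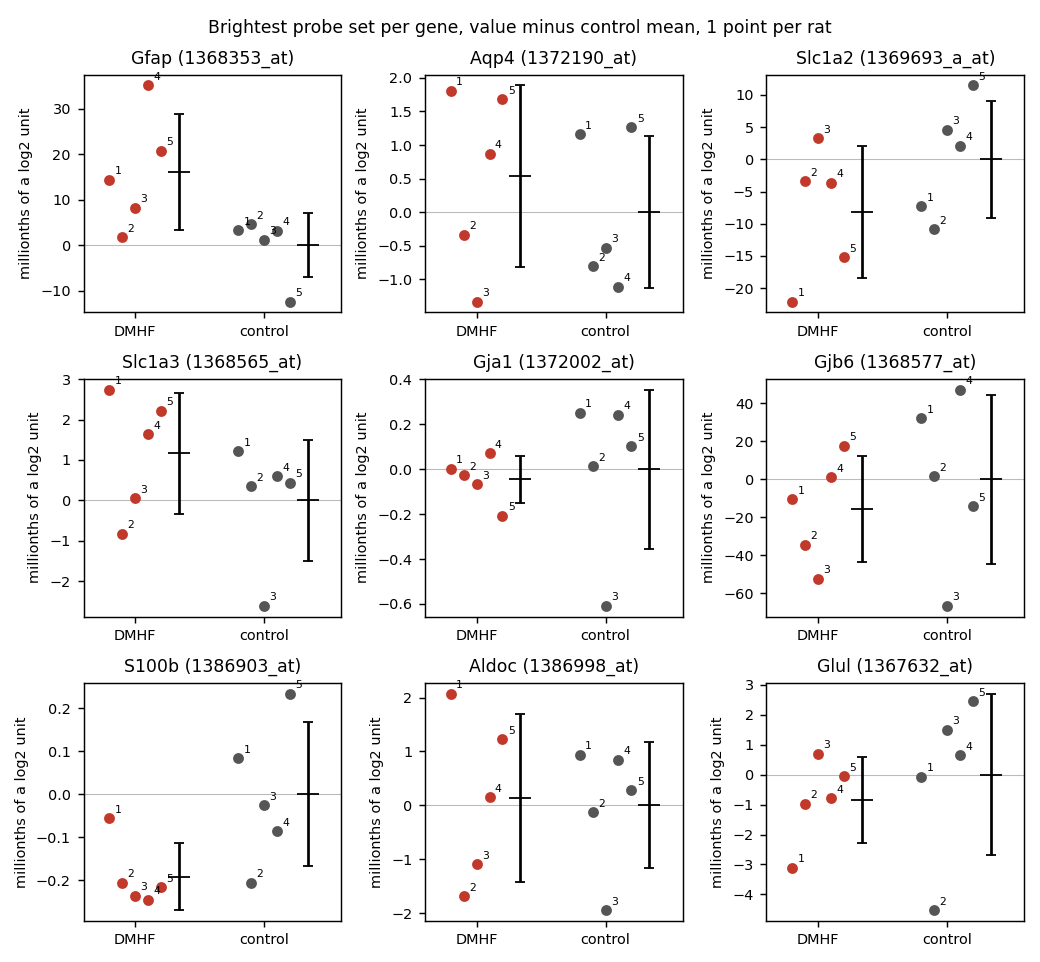
Each panel plots 1 gene's brightest probe set, with 1 numbered point per rat (DMHF in red, control in grey) as millionths of a log2 unit from the control mean, and the group mean ± SD beside the points (n = 5 each). The groups overlap in all 9 panels, with Gfap mostly higher in DMHF and S100b mostly at the low end of the control range.

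Aqp4 encodes the water channel of the astrocyte endfeet that wrap blood vessels, and its 3 probe sets did not run alike. On the brightest, 1372190_at, DMHF rats 1 to 5 stood at 1.81, -0.336, -1.33, 0.874 and 1.68 millionths, against 1.16, -0.806, -0.526, -1.11 and 1.27 millionths in control rats 1 to 5. The groups overlapped through most of their range, and the difference of 0.542 millionths (SE 0.779, limma adjusted p = 1.0) was 0.435 within-group SD. Probe set 1368981_at, with a mean of 9.5, varied most of all the markers. It stood at -80.8, -163, -140, -62 and -98.4 millionths in DMHF rats 1 to 5, against 179, -53.4, 37, -15.4 and -147 in control rats 1 to 5. All 5 DMHF rats lay below the control mean, but control rat 1 alone stood far above the rest. The difference was -109 millionths (SE 54.2), or -1.21 SD, with a limma unadjusted p of 0.0762 and an adjusted p of 0.931. It was -64.2 without control rat 1, and its limma unadjusted p was 0.0493 with a common array median. The remaining probe set, 1387397_at, differed by -2.18 millionths (SE 3.34), and by 0.138 without control rat 1.

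Slc1a2 and Slc1a3 encode the glutamate transporters of astrocytes. Slc1a2, the main one of the forebrain, was nominally lower in DMHF on both probe sets. On the brighter, 1369693_a_at, DMHF rats 1 to 5 stood at -22.1, -3.43, 3.29, -3.62 and -15.2 millionths, against -7.28, -10.9, 4.6, 2.11 and 11.5 in control rats 1 to 5. DMHF rats 1 and 5 were below every control rat and the other 3 lay inside the control range. The difference of -8.2 millionths (SE 5.82), or -0.848 SD, had a limma adjusted p of 0.973, and that of 1369694_at was -2.7 millionths (SE 3.37, adjusted p = 1.0).

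Slc1a3, the transporter prominent in Bergmann glia of the cerebellum, was nominally higher in DMHF on all 3 probe sets. The brightest, 1368565_at, stood at 2.74, -0.824, 0.056, 1.64 and 2.22 millionths in DMHF rats 1 to 5, against 1.21, 0.356, -2.6, 0.606 and 0.436 in control rats 1 to 5. DMHF rats 1, 4 and 5 were above all control rats, and control rat 3 was the lowest of the 10. Its difference was 1.16 millionths (SE 0.925, limma adjusted p = 0.989), or 0.778 SD. Probe set 1371130_at differed by 1.17 millionths (SE 0.623), or 1.2 SD, and 4 of 5 DMHF rats exceeded every control (limma adjusted p = 0.936). The remaining one, 1388064_a_at, differed by 0.734 millionths (SE 4.08), and by -2.36 without control rat 5.

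Glul encodes glutamine synthetase, which turns the glutamate taken up by astrocytes into glutamine. Its brightest probe set, 1367632_at, stood at -3.11, -0.974, 0.696, -0.794 and -0.054 millionths in DMHF rats 1 to 5, against -0.074, -4.52, 1.5, 0.646 and 2.46 in control rats 1 to 5. The DMHF rats all lay inside the control range, and the difference was -0.848 millionths (SE 1.32, limma adjusted p = 1.0). The other probe sets had the other sign, 1.53 millionths for 1386870_at (SE 1.29, adjusted p = 0.994) and 8.03 for 1367633_at (SE 7.59, adjusted p = 0.999). Glul on 1367632_at ran opposite to the choroid plexus list over the 10 rats, with r = -0.75 (permutation p = 0.0121, adjusted p = 0.145) and rho = -0.88 (p = 0.00166, adjusted p = 0.1). Without the 2 rats of most extreme Glul, r was -0.86. With that list as a covariate the difference was 0.358 millionths, and with the ependyma list 1.21. The other Glul probe sets correlated with 1367632_at at -0.14 and -0.02, and their own correlation with the choroid plexus list was not tested.

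The connexins Gja1 and Gjb6 form the gap junctions that couple astrocytes. The brightest probe set of Gja1, 1372002_at, stood at 0.002, -0.028, -0.068, 0.072 and -0.208 millionths in DMHF rats 1 to 5, against 0.252, 0.012, -0.608, 0.242 and 0.102 in control rats 1 to 5. The DMHF rats again lay within the control range, whose low end was control rat 3 alone. The difference was -0.046 millionths (SE 0.264, limma adjusted p = 1.0). Gja1 on 1369640_at differed by -7.07 millionths (SE 19.7) and took the other sign without control rat 1 (2.2) or DMHF rat 5 (1.88).

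The dimmest probe set of Gja1, 1369639_at, had the smallest p of all 18. It stood at 1.11, 5.09, 4.11, 5.58 and 4.62 millionths in DMHF rats 1 to 5, against 2.7, -0.197, -1.84, -2.8 and 2.14 in control rats 1 to 5. DMHF rats 2 to 5 lay above all controls. DMHF minus control was 4.1 millionths (SE 1.28, 95% interval 1.19 to 7.02), or 1.95 SD, with an unadjusted p of 0.0112 and an adjusted p of 0.826 by limma, and the exact permutation test gave p = 0.0238. With a common array median, its limma unadjusted p was 0.225. Array medians differed by up to 15.2 millionths, beside an SD of 2.94 for this probe set over the 10 rats, so that p also carries the array offsets. At a mean of 5.88 this probe set was near the lowest deposited value of 5.25, and whether it measures Gja1 RNA was not tested.

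Gjb6 stood at -10.6, -34.4, -52.2, 1.03 and 17.6 millionths in DMHF rats 1 to 5, against 31.9, 1.62, -66.5, 47.1 and -14.1 in control rats 1 to 5 (1368577_at). The DMHF rats lay within the control range, and the difference of -15.7 millionths (SE 22.3, limma adjusted p = 1.0) was -0.424 SD. Aldoc, the aldolase of astrocyte glycolysis, stood at 2.07, -1.68, -1.09, 0.156 and 1.23 millionths in DMHF rats 1 to 5, against 0.936, -0.124, -1.94, 0.846 and 0.286 in control rats 1 to 5 (1386998_at). DMHF rats 1 and 5 were highest and control rat 3 lowest, with a difference of 0.134 millionths (SE 0.856, adjusted p = 1.0), and -0.352 without control rat 3.

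Among the 18, probe sets of the same gene seldom varied together from rat to rat. Of 13 pairs of probe sets of a shared gene, 11 had a Pearson r between -0.4 and 0.4 over the 10 rats, and the median r was 0.07. The exceptions were the dimmer pair of Glul, 1386870_at with 1367633_at, at r = 0.93 (permutation p = 0.00014, adjusted p = 0.00182 over 13 pairs) and rho = 0.95, and the dimmer pair of Aqp4, 1368981_at with 1387397_at, at r = 0.77 (permutation p = 0.00926, adjusted p = 0.0602) and rho = 0.64. For the Glul pair r was 0.91 without its 2 most extreme rats, control rats 1 and 5. In contrast, the brightest Glul probe set correlated with these at -0.14 and -0.02. A level of Glul, Aqp4, Gja1, Slc1a2 or Slc1a3 in a given rat thus depended on which probe set was read. How often same-gene pairs elsewhere on the array fell between -0.4 and 0.4 was not computed. The low share of related pairs is therefore not read as a trait of these markers.

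**Figure D3:**
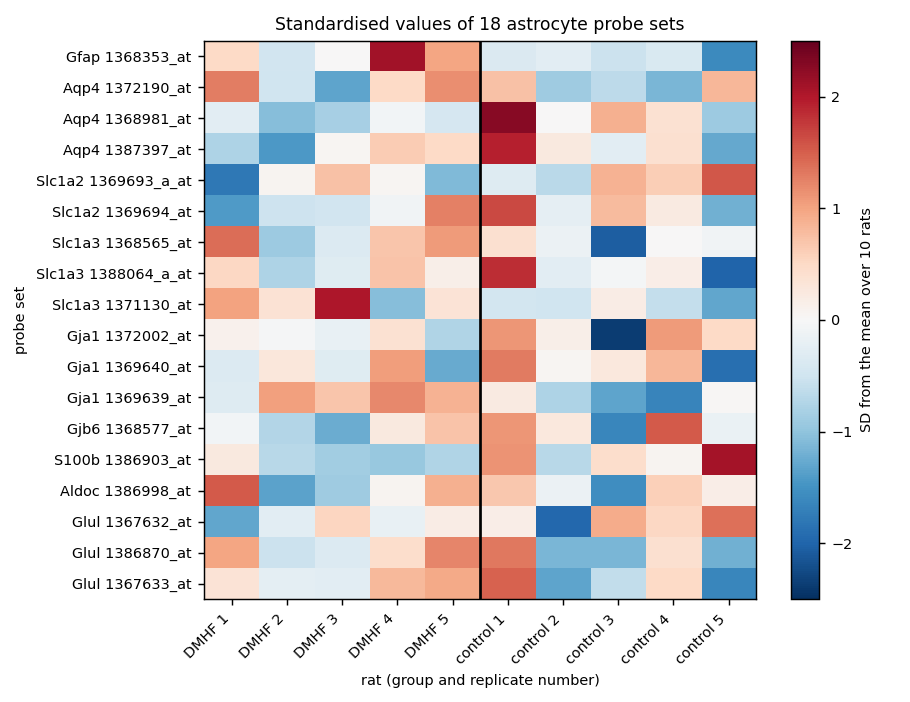
Rows are the 18 astrocyte probe sets and columns the 10 rats, DMHF left of the black line and control right of it, coloured by the number of SD from the probe set's mean over all rats. Control rat 1 is the highest rat for 8 probe sets and control rat 5 the lowest for 6, and rows of a shared gene often differ in colour.

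The markers of different genes were next compared over rats on the brightest probe set of each gene, 36 pairs in all. Their median r was 0.18, beside 0.01 over all 101054436 pairs of the 14217 genes on the array, and 21 of 36 (58.3%) were above 0, where 50.6% of all pairs were. Of the 36 pairs, 1 had an adjusted p under 0.05 and 9 (25%) an unadjusted one. The weakest of those 9 had an r 0.64 away from 0, and 7.1% of all gene pairs lay at least as far from 0. The pair that passed was Slc1a3 with Aldoc, at r = 0.91 (permutation p = 0.00022, adjusted p = 0.00792) and rho = 0.93 (p = 0.00044, adjusted p = 0.0158). An r of 0.91 or more was reached by 0.0347% of all gene pairs. DMHF rats 1 and 5 were high and control rat 3 and DMHF rat 2 low in both genes. The correlation was 0.98 among the 5 DMHF rats, 0.97 among the 5 control rats, and 0.83 without control rat 3 and DMHF rat 1. With control rat 3 alone left out r was 0.89 and its adjusted p 0.0684. It rests on the brightest probe sets: with the most variable one of each gene r was 0.38 (adjusted p = 0.534).

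**Figure D4:**
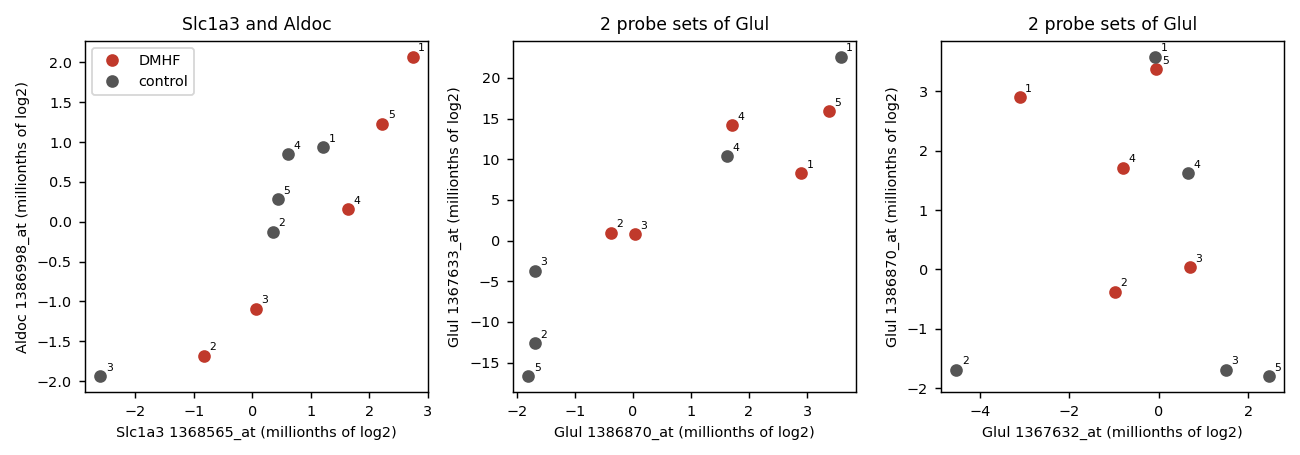
Each point is 1 numbered rat (DMHF red, control grey) in millionths of a log2 unit from the control mean. Slc1a3 and Aldoc vary together over rats of both groups (r = 0.91), as do the dimmer probe sets of Glul (r = 0.93), while the brightest Glul probe set shows no such relation with another of Glul (r = -0.14).

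Other pairs were related less closely, and none of them passed. Slc1a2 with Glul stood at r = 0.78 (permutation p = 0.00757, adjusted p = 0.122) and rho = 0.81, and at 0.6 without DMHF rat 1 and control rat 5. Gjb6 with Aldoc had r = 0.75 and rho = 0.68, and Gja1 with Gjb6 had r = 0.72 and rho = 0.65 (adjusted permutation p of r = 0.122 for both). For Gja1 with Gjb6 r was 0.41 without control rats 1 and 3, and it was 0.93 among control rats and -0.23 among DMHF rats. Aqp4 with Aldoc stood at r = 0.67 and rho = 0.67 (adjusted permutation p = 0.178). Gfap ran opposite to S100b, with r = -0.67 and rho = -0.73 (adjusted permutation p = 0.178 for r). That r was -0.21 among DMHF rats, -0.82 among control rats and -0.47 over all rats without control rat 5. On their brightest probe sets both glutamate transporters ran opposite to each other, with r = -0.65 and rho = -0.7 (adjusted permutation p = 0.178). That Slc1a2 probe set stood at -0.53 with Slc1a3 1388064_a_at and -0.27 with 1371130_at. The other Slc1a2 probe set, 1369694_at, stood at -0.1 with the brightest of Slc1a3, 0.61 with 1388064_a_at and -0.12 with 1371130_at. Gfap with Aqp4, both often taken as general astrocyte markers, had r = 0.28 and rho = 0.21. Over the 140 pairs of probe sets of different genes, a family added after the data were seen, Slc1a3 with Aldoc alone passed on r, with 0 pairs passing on rho and 20 (14.3%) at an unadjusted p under 0.05, all with an r at least 0.64 away from 0.

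**Figure D5:**
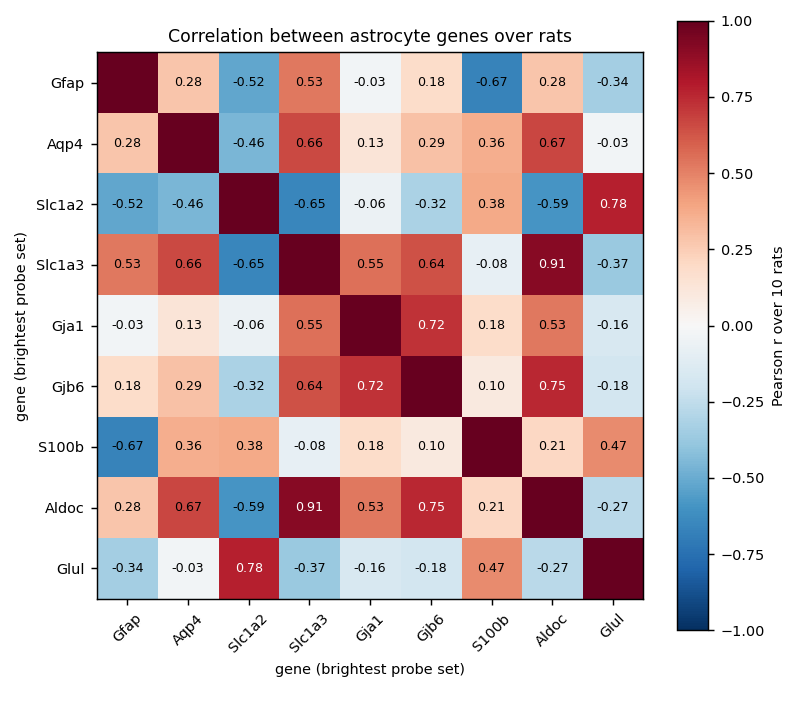
Cells give the Pearson r over 10 rats between the brightest probe sets of 9 astrocyte genes. Slc1a3, Aldoc, Gjb6 and Aqp4 are mostly positive with each other, Slc1a2 and Glul are positive with each other (0.78), and Slc1a2 is negative with Slc1a3 (-0.65) and Aldoc (-0.59).

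Since Slc1a3 and Aldoc varied together, their start regions are shown, with that of Gfap as the marker of smallest p among the brightest probe sets. Each is a window of 300 bases around a RefSeq start on GRCr8, most of it upstream, with matches in capitals to 4 motifs of factors known in astrocytes, searched on both strands. These were TTCNNNGAA for STAT factors, TTGGC and GCCAA separated by any 5 bases for NFI factors, the shorter NFI motif TTGGCA, which can overlap it, and ACAATG for SOX factors.
Gfap, chr10:88361612-88361911, minus strand: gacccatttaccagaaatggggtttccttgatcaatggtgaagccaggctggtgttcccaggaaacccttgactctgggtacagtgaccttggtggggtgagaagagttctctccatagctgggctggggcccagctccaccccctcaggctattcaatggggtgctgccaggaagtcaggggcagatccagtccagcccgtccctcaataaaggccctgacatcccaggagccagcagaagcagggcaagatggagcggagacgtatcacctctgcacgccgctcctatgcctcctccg
Slc1a3, chr2:59557759-59558058, minus strand: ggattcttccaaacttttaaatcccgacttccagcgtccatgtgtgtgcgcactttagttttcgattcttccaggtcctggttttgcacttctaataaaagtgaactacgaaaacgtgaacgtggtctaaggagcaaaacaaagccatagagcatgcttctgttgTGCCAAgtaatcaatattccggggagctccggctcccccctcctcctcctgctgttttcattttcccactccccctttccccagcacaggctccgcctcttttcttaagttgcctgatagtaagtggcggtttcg
Aldoc, chr10:63715294-63715593, plus strand: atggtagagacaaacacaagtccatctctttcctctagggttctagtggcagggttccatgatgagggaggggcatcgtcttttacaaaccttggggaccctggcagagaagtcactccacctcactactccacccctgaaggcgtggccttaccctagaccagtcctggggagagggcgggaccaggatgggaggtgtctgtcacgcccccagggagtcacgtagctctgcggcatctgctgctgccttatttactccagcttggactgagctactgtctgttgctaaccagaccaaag
The capitals in Slc1a3 mark the reverse complement of TTGGCA, beginning at -85 from the start, and the windows of Gfap and Aldoc hold none of the motifs. All 9 measured genes matched the promoter table. Over their windows, several per gene for some, TTGGCA occurred in 4 of 9 genes (Gjb6, Glul, S100b and Slc1a3) and the other motifs in 0. Of all 33469 windows of this length, 14% held TTGGCA, 8.87% the STAT motif, 13.2% the SOX motif and 0.0418% the full NFI motif. Those shares count single windows, whereas a gene counted if any of its windows held a match, so the 2 are not directly comparable. These matches describe letters only.

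Further genes of astrocytes were described from a list of 56, of which 49 were measured. Of these, 27 were nominally higher and 22 lower in DMHF, 0 passed (0% of all genes did), and 1 had an unadjusted p under 0.05 (4.8% of all genes did), with a median difference of 0.102 within-group SD beside 0.0477 SD over all 14217 genes. Mlc1, a membrane protein of astrocyte endfeet, had the smallest p. It stood at 3.86, 3.21, 2.94, 3.59 and 1.3 millionths in DMHF rats 1 to 5, against -1.63, 0.236, 0.316, 0.186 and 0.896 in control rats 1 to 5. All 5 DMHF rats were above all 5 controls. The difference was 2.98 millionths (SE 0.627), or 3.04 SD, with an unadjusted p of 0.0011 and an adjusted p of 0.698 by limma. The exact permutation test gave p = 0.00794, the smallest it can give. With single rats left out the difference ran from 2.57 to 3.4. With the ependyma list as a covariate it was 2.87. Across all probe sets, 0.535% had every DMHF rat above every control rat. Next in the list were Id3, an inhibitor of DNA binding by transcription factors, at 7.39 millionths (SE 3.48), and the metabotropic glutamate receptor Grm3 at -2.12 (SE 1.01), each with a limma adjusted p of 0.931.

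Genes that rise in reactive astrocytes were split evenly, with 13 of 28 measured nominally higher and 15 lower in DMHF, 0 past the test and a median difference of -0.0346 SD. The smallest p values belonged to Lcn2, a secreted lipocalin (5 millionths, SE 2.55), Serping1, the complement inhibitor (-90.6, SE 56.5), and Tm4sf1 (-10.4, SE 10.7), with limma adjusted p values of 0.931, 0.955 and 1.0 in that order. In the wider glutamate and glutamine cycle 9 of 16 genes were nominally higher, led by the glutamine transporter Slc38a1 (0.63, SE 0.345), the GABA transporter Slc6a11 (4.4, SE 2.6) and the vesicular glutamate transporter Slc17a6 (23.1, SE 20.8). Of other gap junction genes 6 of 9 were nominally higher, led by the neuronal connexin Gjd2 (1.77, SE 0.883), with Gja5 (2.77, SE 1.89) and Gjc1 (0.366, SE 0.373). Neither list held a gene past the test.

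Markers of the other main brain cells did not pass either. Nominally higher in DMHF were 12 of 20 neuronal, 3 of 18 oligodendrocyte, 9 of 17 microglial and 5 of 18 endothelial genes, where 53% of all genes were, with 0 past the test in each list. The members of smallest p were Nefl (-1.89, SE 1.14) and Elavl4 (-0.684, SE 0.437) for neurons, beside Slc17a6. They were the myelin genes Mal (-6, SE 3.61) and Mog (-2.38, SE 2.17) and the phosphodiesterase Enpp6 (-32.6, SE 22.4) for oligodendrocytes. For microglia they were the complement genes C1qa (-5.37, SE 2.37) and C1qc (-10.2, SE 5.24) and Tmem119 (-56.2, SE 38.1), and for endothelium Pecam1 (-5.34, SE 2.81), Ly6c (9.52, SE 5.9) and Tie1 (1.48, SE 1.0). Over rats, Gjb6 and Aldoc followed the mean of the oligodendrocyte list at r = 0.76 and 0.77 (rho = 0.72 and 0.6). They followed the further astrocyte genes at r = 0.8 and 0.78 (rho = 0.72 and 0.61), as did Slc1a3 at 0.79 (rho = 0.71). The adjusted permutation p was 0.145 for each of these r values. With the further astrocyte genes Gja1 stood at r = 0.62, Gfap at 0.55 and Aqp4 at 0.46. On their brightest probe sets Slc1a2 ran opposite to that list at r = -0.67 (rho = -0.7) and Glul at -0.55 (rho = -0.66), and S100b stood at -0.12. None of the 72 relations of markers with lists passed. The choroid plexus members were led by Folr1 (41.5, SE 17.4), Kcnj13 (-7.66, SE 3.86) and Cldn2 (46, SE 26.6) and the ependyma members by Foxj1 (14.2, SE 6.2), Tmem212 (42.1, SE 18.3) and Drc12 (20.2, SE 10.2).

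The genes whose values over the 10 rats were most like a marker were sought among the 14216 other genes, as a description. For Gfap these were C1qbp (r = 0.913), Rpl27 (0.91), Tp53i13 (0.909), Trpc2 (0.869) and Bcan (0.866), the last a proteoglycan of the brain's extracellular matrix. The SD of Rpl27 was 0.0107 millionths, about the size of the last deposited decimal. For Aqp4 they were Nxpe2 (0.934), Rab3ip (0.914), Calb1 (0.907), a calcium-binding protein of neurons, Copg2 (0.906) and Ipp (0.904). For Slc1a2 they were Arf5 (0.962), Mat2a (0.946), which makes S-adenosylmethionine, Lancl1 (0.945), Ankzf1 (0.945) and the chloride channel Clcn2 (0.927). No astrocyte marker was among these 15. Seen from Slc1a3, Aldoc ranked as number 9 of 14216 genes, and seen from Aldoc, Slc1a3 ranked as number 30.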

How the data were processed

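Total RNA of 10 rats was hybridised to Affymetrix arrays, 1 array per rat, and the titles gave each rat's group and replicate number. The authors deposited 1 table of processed values for 31099 probe sets, taken as log2 from their range of 5.25 to 14.22. R 2.7.2 was used, per the submitters' processing notes, and the sources used here do not give the background correction, normalization or log base. After 57 control probe sets were left out, DMHF was compared with control by limma 3.58.1 in R 4.3.3 (lmFit, eBayes, two-sided, no covariate, prior degrees of freedom 0.841, Benjamini-Hochberg over 31042 probe sets, threshold 0.05). Exact permutation tests were two-sided over all assignments of 5 of 10 rats. Correlation p values used 100000 permutations of the rats, two-sided, adjusted within each family. For gene pairs the probe set of highest mean stood for the gene (14217 genes). Gene names are those of the platform annotation in GEO, where 20826 probe sets name a single gene, 436 several and 9780 are unnamed here. All 9 member identifiers were found in the RefSeq table of GRCr8, which changed 0 symbols and supplied the promoters.

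The members, the further gene lists and the tests were chosen with earlier results of these data known. Named genes were all members, up to 3 genes of smallest p per list, and the 5 genes most like Gfap, Aqp4 and Slc1a2, passing over symbols starting with LOC or RGD. Alternatives were array weights, a block for the replicate number, the brighter 15521 probe sets, the same median on every array, quantile normalization, trended and robust variance, no moderation, other probe sets and each rat left out. The limma and correlation steps were first tested on simulated data. There limma called 2 of 50 probe sets shifted by 2 SD (4%) and 32 of 50 shifted by 4 SD (64%). The largest difference among the astrocyte probe sets was 1.95 SD (Gja1 1369639_at). Differences of that size would thus seldom pass, and the lack of a passing marker does not show that the markers were unchanged. Precision is limited by the number of arrays.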

Additional observations from a re-analysis of the deposited data

Results flagged for a closer look

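Outlying rats were sought in 36 groups of 5 rats (18 probe sets, DMHF and control). The gap between the end rat and its neighbour exceeded 0.71 of the group's range, Dixon's 95% value, in 4. Chance gives about 1 in 20 for independent groups, but these groups share their rats. The share over all probe sets was not computed, so 4 of 36 is not read as an excess in these markers. For Gfap (1368353_at) control rat 5 lay below the other control rats with a ratio of 0.799. For S100b (1386903_at) DMHF rat 1 lay above the other DMHF rats with a ratio of 0.789. Control rat 3 was the low rat for Slc1a3 (1368565_at, 0.777) and for the brightest probe set of Gja1 (1372002_at, 0.721).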

How the results depend on the processing

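Under every alternative named here, 0 of the astrocyte probe sets tested passed limma. Of the 10076 probe sets left by quantile normalization 13 passed. Of only 4 astrocyte ones left, 1 was higher in DMHF and 0 had an unadjusted p under 0.05. With 1 rat left out, 0 to 1 of all probe sets passed (1 without DMHF replicate 2). Astrocyte probe sets at an unadjusted p under 0.05 numbered 1 with the replicate block (Gfap lost, p 0.0567). Among the brighter 15521, which leave out Gja1 1369639_at, they numbered 1 (700 in all). With 1 rat left out they numbered 1 to 3 (1 without DMHF replicate 5, Gfap lost), beside 1319 to 2156 array-wide. Trended and robust variance or no moderation gave 3 (1656 and 1699 array-wide), adding S100b (p 0.0441 and 0.0486). A common array median gave 2, with Aqp4 1368981_at (p 0.0493) in place of Gja1 1369639_at (p 0.225). The sign changed for Gjb6 after quantile normalization (32.5 millionths) and for Aldoc with array weights (-0.145). With the ependyma list as a covariate the signs of Slc1a3 1388064_a_at (-4.62), Aldoc (-0.211) and Glul 1367632_at (1.21) changed, and with the choroid plexus list likewise (-2.23, -0.0954 and 0.358). With the ependyma list Gja1 1369640_at moved to -40.7 (unadjusted p 0.0438) and Aqp4 1368981_at to -163 (p 0.0359), and with the choroid plexus list to -25.3 (p 0.137) and -138 (p 0.0403). With 1 rat left out, 13 of 18 probe sets kept their sign. The others ran from -4.16 to 0.138 (Aqp4 1387397_at), from -2.36 to 3.79 (Slc1a3 1388064_a_at), from -0.198 to 0.017 (Gja1 1372002_at), from -22.6 to 2.2 (Gja1 1369640_at) and from -0.352 to 0.589 (Aldoc).

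Same-numbered rats of both groups correlated at 0.03 to 0.27 in their deviations over all probe sets, not above 0.1 for each number, and 3 of 5 DMHF rats (1, 3 and 4) matched best the control rat of their own number. The main tests did not treat the rats as paired, and whether a number marks a shared litter, cage or day is not known. With the replicate block in limma, 2217 probe sets of the array had an unadjusted p under 0.05, against 1700 without it. The smallest limma adjusted p with the block was 0.172 over the array and 0.696 among astrocyte probe sets, against 0.698 and 0.826 without it. With the replicate block, as correlations over 5 differences, 0 of 36 pairs passed, a count that says nothing of stability because the smallest p the 120 orders allow (0.00833) gives a single pair an adjusted p of 0.3. The median r was -0.11, and r was 0.88 for Slc1a3 with Aldoc and -0.43 for Aqp4 with Aldoc. A common array median adds the same offset to all probe sets of an array. It gave 18 passing pairs with a median r of 0.74, and r of -0.06 for Gjb6 with Aldoc and -0.26 for Gja1 with Gjb6. With the most variable probe set per gene, Slc1a2 with Glul stood at -0.46. With 1 rat left out 0 to 3 pairs passed (0 without control replicate 3, 2 without DMHF replicate 1 or control replicate 2, 3 without DMHF replicate 5), and the median r ran from 0.08 to 0.23. Mlc1 kept its sign where it was tested, and its unadjusted limma p was 0.361 when array medians were made equal. The SD of Mlc1 was 1.0 millionths in DMHF and 0.957 in control rats, beside array medians that differed by up to 15.2 millionths. That p thus carries the offset of each array as well as the spread of Mlc1. Quantile normalization left 1 of the 36 pairs with varying values, so no correlation result is given for it. Other causes of these changes were not tested. At an unadjusted p under 0.05, 1002 probe sets of the array were higher and 698 lower in DMHF, against 208 and 333 with a common array median and 450 and 154 after quantile normalization.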

Other observations

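Control rat 1 was the highest of 10 rats for 8 of the 18 astrocyte probe sets, where it was highest for 10.9% of all probe sets. Those were mostly the dimmer probe sets of Aqp4, Slc1a2, Slc1a3, Gja1 and Glul. Control rat 5 was lowest for 6 of 18 (12.4% of all) and highest for 3, namely S100b and the brightest probe sets of Slc1a2 and Glul. Control rat 3 was lowest for 4 of 18 (11.3% of all). The DMHF rats were the highest for 6 and the lowest for 6 of the 18, where they were highest for 52.8% and lowest for 47.9% of all probe sets. These counts are descriptions without a test, and probe sets of a gene share their rat.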
